A study of Mus musculus with 8 samples.

Results

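The genes described here are 10 members of the SR splicing factor family, Srsf1, Srsf2, Srsf3, Srsf4, Srsf5, Srsf6, Srsf7, Srsf9, Srsf10 and Srsf11, of 55291 gene symbols counted in each library. They were chosen by gene name, and all 10 were found in all 8 libraries and passed the expression filter that left 16371 genes. The study sequenced RNA from mouse embryonic stem (ES) cells, pluripotent cells of the early embryo, to follow splicing after loss of DHX35 or GPATCH1. DHX35 is a DEAH-box RNA helicase of the spliceosome and GPATCH1 is the G-patch protein that partners it. In the DHX35-dTAG line the DHX35 gene carries the dTAG degron, and in the GPATCH1-dTAG line the GPATCH1 gene does. The degron is a protein tag that the compound dTAG-13 brings to the cell's degradation machinery. Cells of each line received 200 nM dTAG-13 or the solvent DMSO for 4 h, which gave 4 groups of 2 libraries. The DMSO groups carry the tag as well, and no untagged line was analysed here. Each line descends from colonies picked after selection, and the labels do not say which clone or clones gave the libraries, nor whether the replicates were separate cultures. p-values therefore measure the spread between libraries, which may be technical. The labels call the cells E14, whereas their growth protocol speaks of R1 cells.

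SR proteins bind exonic sequences through RNA recognition motifs and contact the splicing machinery through a tail rich in serine and arginine. Phosphorylation of that tail by the SRPK and CLK kinases controls where they sit in the nucleus and what they bind. The family is known for regulating its own mRNAs: many of its genes contain a poison exon, a strongly conserved stretch whose inclusion brings an early stop codon into the message. The message is then degraded by nonsense-mediated decay, in which UPF1 and its partners read exon junction complexes left behind the stop codon. The counts were made per gene, so productive and decay-bound transcripts of a gene were added together and their shares cannot be told apart here.

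The sequences that make these mRNAs sensitive to splicing are short and were read from the GENCODE M21 annotation (GRCm38). The members have 15 annotated decay transcripts with 10 different stop codons, and for each stop codon the transcript with the most exons was read. For 5 of the 10, 1 each in Srsf3, Srsf6, Srsf7, Srsf9 and Srsf11, the exon with the stop codon is skipped by a coding transcript of the gene. The lines below give the part of each such exon from its first base to the stop codon, 5′ to 3′ on the strand of the gene, with the stop codon in capitals. They are shown because including or skipping such an exon ties the splicing of these genes to the amount of their mRNA.
Srsf3, chr17:29039454-29039487, plus strand: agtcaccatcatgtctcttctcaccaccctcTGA
Srsf7, chr17:80205054-80205081, minus strand: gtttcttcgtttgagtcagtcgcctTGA
Srsf6, chr2:162932815-162932966, plus strand: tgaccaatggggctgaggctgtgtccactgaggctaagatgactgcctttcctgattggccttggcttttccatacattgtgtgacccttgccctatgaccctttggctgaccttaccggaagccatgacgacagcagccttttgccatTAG
Srsf9, chr5:115328347-115328428, plus strand: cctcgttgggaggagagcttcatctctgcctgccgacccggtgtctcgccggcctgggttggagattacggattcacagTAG
Srsf11, chr3:158023310-158023359, minus strand: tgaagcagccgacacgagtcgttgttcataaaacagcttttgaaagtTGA

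In Srsf3 and Srsf7, which are close paralogues, the stop codon ends 34 and 28 bases into exons of 456 and 460 bases, so nearly all of each exon lies behind the stop. In Srsf6 it ends 152 bases into an exon of 268 bases, and that stop is also annotated in a coding transcript of the gene. In Srsf9 it ends at base 82 of 358, and in Srsf11 at base 50 of 117. The exons of Srsf3, Srsf6, Srsf7, Srsf9 and Srsf11 are followed by 3, 4, 5, 4 and 1 further exons in those transcripts.

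In Srsf1, Srsf4 and Srsf5, no coding transcript directly joins the exons on either side of the exon that holds the early stop. Srsf11 has a second stop codon of that kind. Whether coding transcripts leave these exons out through other junctions was not tested. The shortest of these stretches are those of Srsf5, Srsf11 and Srsf1, printed for comparison with the skipped exons above.
Srsf5, chr12:80947116-80947130, plus strand: ggcttctctgtaTAG
Srsf11, chr3:158024209-158024231, minus strand: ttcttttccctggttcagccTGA
Srsf1, chr11:88049977-88050015, plus strand: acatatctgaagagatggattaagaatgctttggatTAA
Srsf2 differs from these, since both of its decay transcripts use the normal stop codon, and the one read has 3 exons behind the exon that holds it. Srsf10 has no transcript annotated for decay among its 10 transcripts. Retained-intron transcripts were annotated for 8 of the 10 members, with the largest number, 11, for Srsf11.

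The libraries held 12014203 to 14994173 counts, and no member had fewer than 451 counts in any of them. Levels are given as CPM, the counts of a gene relative to a library total that was scaled by TMM, a method that sets the bulk of genes equal between libraries. 8 ES cell markers, among them Pou5f1 and Nanog, summed to 3875 to 4556 CPM in each library. Fibroblast markers summed to 2.56 to 5.75 CPM with S100a4 at 0, primitive endoderm markers to 3.91 to 6.54, mesoderm markers to 18.9 to 25.6 and neural markers to 78.2 to 89.6 CPM, most of it Tubb3. Dhx35 was at 72.1 to 84.6 CPM in DHX35-dTAG cells and 58.0 to 64.8 CPM in GPATCH1-dTAG cells, and Gpatch1 at 23.1 to 25.6 and 6.88 to 7.30 CPM. Since dTAG-13 removes protein and not mRNA, these values do not check the treatment. Replicate 1 of DHX35-dTAG in DMSO stood apart: its mean correlation with the other libraries over all genes was 0.976, against 0.988 to 0.990 for each of the others, and mitochondrial mRNAs took 0.272% of its counts, against 0.758% to 1.13%. In that library the 10 members summed to 3674 CPM, against 2863 to 3162 CPM in the other 7. Values of the members that moved with it are therefore given with and without it. A fit without it leaves that group with 1 library, which is assumed to vary like the other groups, and the same holds for fits without its partner. The share of counts taken by a pair of ribosomal RNA genes, Gm23935 and CT010467.1, moved with the treatment, in opposite directions in the lines. It was 3.15% and 1.54% in DMSO and 12.0% and 20.2% in dTAG-13 in DHX35-dTAG cells, and 4.23% and 20.9% in DMSO and 1.27% and 2.02% in dTAG-13 in GPATCH1-dTAG cells.

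All 10 members were expressed in every library, and per length of transcript Srsf2 was the highest and Srsf4 the lowest. Per kilobase of exons of coding transcripts, Srsf2, one of the first SR proteins described, was at 329 ± 33.0 CPM per kb (SD over 8 libraries). Srsf3, the smallest SR protein, followed with 185 ± 32.1 and Srsf5 with 160 ± 11.9 CPM per kb. The ranges of Srsf3 and Srsf5 over libraries overlapped, although Srsf3 was higher than Srsf5 in 8 of 8 libraries.

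Srsf6 and Srsf1 came next with 105 CPM per kb each and could not be ordered, since Srsf6 was higher in 5 of 8 libraries. Srsf7 reached 89.0 ± 6.41 and Srsf11 70.0 ± 4.91 CPM per kb. Srsf9, which resembles Srsf1 but has a short serine and arginine tail, was at 36.9 ± 9.58 CPM per kb and Srsf10 at 35.4 ± 2.91, and Srsf9 was the higher of these in 3 of 8 libraries. Srsf4 was lowest with 20.1 ± 1.76 CPM per kb, below every other member in every library. The order depends on the length used: over all annotated exons, Srsf3 moved from rank 2 to 6 and Srsf1 from 5 to 2, whereas Srsf2 and Srsf4 kept the first and the last rank.

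The first comparison asked which members changed after 4 h of dTAG-13 in DHX35-dTAG cells. None of the 10 passed an adjusted p of 0.05 in edgeR's quasi-likelihood test, in which 0 of 16371 genes (0%) passed. At an unadjusted p under 0.05 it held 882 genes (5.39%) and 0 members. DESeq2 called 1 gene and limma-voom with sample quality weights 0 genes, with no member among them. At an unadjusted p under 0.05, DESeq2 had 2 members among 472 of 16371 genes and limma-voom 2 members among 476. The log2 fold changes of the members ran from -0.48 to 0.12 with a median of -0.12, against -0.01 over all genes, and 7 of 10 were below 0. Without replicate 1 of the DMSO group that median was -0.03. In that fit edgeR called 2 genes (0.0117%), 0 of them members, and 0 members had an unadjusted p under 0.05.

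Srsf9 had the largest difference. Its CPM was 74.5 and 41.0 in DMSO and 39.8 and 42.5 in dTAG-13. A single DMSO library was high, and the other lay between the treated libraries. The log2 fold change was -0.48 ± 0.23 (SE), which is a fold between 0.501 and 1.02 at 95%, with an adjusted p of 0.71 in edgeR. Without that library it was 0.01 (95% interval -0.20 to 0.21, adjusted p = 1.00 in edgeR).

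Srsf3, which also helps to export mRNA from the nucleus, had 679.8 and 446 CPM in DMSO and 409 and 461 CPM in dTAG-13. Here too 1 DMSO library was high and the groups overlapped. The log2 fold change was -0.37 ± 0.17 (SE), with a 95% interval of -0.75 to 0.00 (adjusted p = 0.71, edgeR). It was -0.04 (-0.20 to 0.12) without replicate 1 of the DMSO group.

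Srsf1, the prototype of the family, was at 717 and 581 CPM in DMSO and at 515 and 589 CPM in dTAG-13. Srsf2 was at 816 and 632 CPM in DMSO and at 633 and 646 CPM in dTAG-13. For both, the second DMSO library lay within the treated range or just below it. Their log2 fold changes of -0.24 (95% interval -0.49 to 0.02) and -0.18 (-0.44 to 0.08) were -0.07 and 0.02 without replicate 1 of the DMSO group.

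Srsf5, Srsf6 and Srsf4 form a branch of the family, and each has a pair of RNA recognition motifs. Srsf5 had 305 and 253 CPM in DMSO and 241 and 259 CPM in dTAG-13, a log2 fold change of -0.16 (95% interval -0.39 to 0.07) with all libraries and of -0.02 (-0.17 to 0.13) without replicate 1 of the DMSO group. Srsf6 had 424 and 396 CPM against 373 and 399 CPM, a log2 fold change of -0.09 (-0.27 to 0.09), or -0.04 (-0.18 to 0.11) without that library. In both the groups overlapped. Srsf4 was the only member whose groups did not overlap, with 40.4 and 41.1 CPM in DMSO and 44.7 and 43.8 CPM in dTAG-13. Its log2 fold change of 0.12 (-0.09 to 0.33) had an adjusted p of 0.72 in edgeR, and it was -0.12 when the libraries were scaled by their totals without TMM. Of all genes, 14.6% had both treated libraries above both DMSO libraries and 14.1% had both below, against 1 and 0 of the 10 members.

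Srsf7, the paralogue of Srsf3 that carries a zinc knuckle, had 235 and 218 CPM in DMSO and 207 and 224 CPM in dTAG-13. Srsf10, which acts as a repressor once it loses its phosphate groups, had 182 and 218 CPM in DMSO and 183 and 217 CPM in dTAG-13. Srsf11, known for promoting microexons in neurons, had 199 and 245 CPM against 217 and 236 CPM. In Srsf10 the libraries of either group differed by more than the groups did, and its log2 fold change was 0.00 with a 95% interval of -0.26 to 0.27. Srsf7 and Srsf11 were at -0.08 and 0.03 with all libraries. Srsf7, Srsf10 and Srsf11 were at -0.02, -0.12 and -0.11 without replicate 1 of the DMSO group. Srsf11 thereby turned its sign, as did Srsf10 from 0.0043.

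Which DMSO library was kept decided the call. With replicate 2 of the DMSO group left out in place of replicate 1, 4947 of 17175 genes passed (28.8%), and Srsf1, Srsf2, Srsf3, Srsf5 and Srsf9 were among them, each lower in dTAG-13. The largest of these differences was that of Srsf9, -0.85 on the log2 scale with an adjusted p of 1.82e-06 in edgeR. With only the 4 libraries of the line, edgeR called 1 gene (0.00636%) and no member. Without an expression filter Srsf3 (adjusted p = 0.038, edgeR) and Srsf9 (0.034) passed among 345 of 32642 genes (1.06%), and with library totals without TMM Srsf9 passed (0.027) among 318 genes (1.94%). That last scaling moved the median of all genes to -0.25, and the Srsf9 value under it, -0.72, stood against this shift. Library totals include the ribosomal RNA genes, whose share was higher in both dTAG-13 libraries of this line, and their part in that call was not tested.

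**Figure D1:**
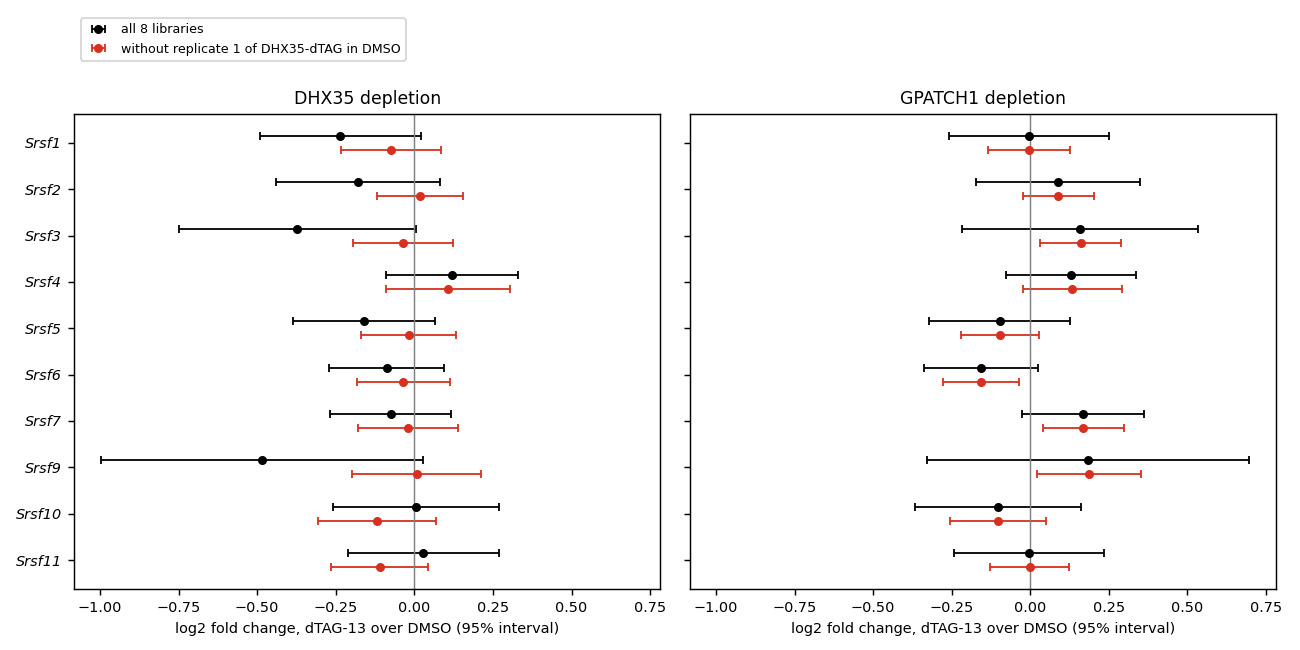
Log2 fold change of each member, dTAG-13 over DMSO, with its 95% interval from edgeR, after DHX35 depletion (left) and GPATCH1 depletion (right), with all 8 libraries in black and without replicate 1 of DHX35-dTAG in DMSO in red. On the left, Srsf9 moves from -0.48 to 0.01 and Srsf3 from -0.37 to -0.04 once that library is left out, and on the right the points stay in place while the intervals narrow.

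The second comparison asked the same of GPATCH1-dTAG cells, in which the replicates of the members lay closer together. No member and none of the 16371 genes (0%) passed an adjusted p of 0.05 in edgeR with all 8 libraries, and 486 genes (2.97%) and 0 members had an unadjusted p under 0.05. DESeq2 called 0 genes and limma-voom with sample quality weights 32, again with no member. At an unadjusted p under 0.05, DESeq2 had 0 members among 115 genes and limma-voom 3 members among 1721. The log2 fold changes ran from -0.16 to 0.18 with a median of 0.04, against 0.00 over all genes, and 5 of 10 were below 0. Of the members, 5 had both treated libraries above both DMSO libraries (Srsf2, Srsf3, Srsf4, Srsf7 and Srsf9) and 2 had both below (Srsf5 and Srsf6). Over all genes these shares were 21.5% and 20.3%.

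The paralogues Srsf3 and Srsf7 had differences of like size and direction. Srsf3 was at 443 and 447 CPM in DMSO and at 486 and 508 CPM in dTAG-13. Srsf7 was at 224 CPM in both DMSO libraries and at 243 and 261 CPM in dTAG-13. In both genes the treated libraries were above the DMSO libraries, by a log2 fold change of 0.16 for Srsf3 (95% interval -0.22 to 0.53) and of 0.17 for Srsf7 (-0.02 to 0.36), with an adjusted p of 1.00 each in edgeR. The standard error of Srsf3 was 0.17 with all libraries and 0.06 without replicate 1 of DHX35-dTAG in DMSO, and that of Srsf7 was 0.09 and 0.06.

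Srsf6 and Srsf5 had values in the other direction. Srsf6 was at 395 and 399 CPM in DMSO and at 353 and 359 CPM in dTAG-13. Srsf5 was at 277 and 274 CPM in DMSO and at 259.6 and 256 CPM in dTAG-13. Their log2 fold changes were -0.16 (95% interval -0.34 to 0.03) and -0.10 (-0.32 to 0.13). Both were above 0, at 0.01 and 0.07, when libraries were scaled by their totals, a scaling that moved the median of all genes to 0.17.

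Srsf4 had 43.8 and 48.5 CPM in DMSO and 50.6 and 50.3 CPM in dTAG-13, a log2 fold change of 0.13 (95% interval -0.08 to 0.34). Srsf9 had 39.0 and 39.8 CPM in DMSO and 47.2 and 42.3 CPM in dTAG-13, a log2 fold change of 0.18 (-0.33 to 0.70). Srsf2 had 628 and 602 CPM in DMSO and 650.4 and 657 CPM in dTAG-13, a log2 fold change of 0.09 (-0.17 to 0.35). None of these differences passed the test, although the groups did not overlap.

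Srsf1, Srsf10 and Srsf11 had overlapping groups. Srsf1 was at 559 and 569 CPM in DMSO and at 554 and 569 CPM in dTAG-13. Srsf10 was at 227 and 214 CPM against 197 and 214 CPM. Srsf11 was at 241 and 242 CPM against 236 and 246 CPM. The 95% interval of the log2 fold change was -0.26 to 0.25 for Srsf1, -0.37 to 0.16 for Srsf10 and -0.24 to 0.24 for Srsf11. These intervals were -0.13 to 0.13, -0.26 to 0.05 and -0.13 to 0.12 without replicate 1 of DHX35-dTAG in DMSO.

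When the fit held only the 4 libraries of the GPATCH1-dTAG line, edgeR called 127 genes (0.803%), none of them members. Srsf3, Srsf5, Srsf6, Srsf7 and Srsf9 then had an unadjusted p under 0.05, as did 11.2% of all genes, and the lowest adjusted p was 0.13, for Srsf6 at -0.16 on the log2 scale. Without replicate 1 of DHX35-dTAG in DMSO, edgeR called 51 genes (0.299%) and no member, and Srsf3, Srsf6, Srsf7 and Srsf9 had an unadjusted p under 0.05, as did 8.41% of all genes. In that fit the 95% intervals were 0.03 to 0.29 for Srsf3, -0.28 to -0.04 for Srsf6, 0.04 to 0.30 for Srsf7 and 0.02 to 0.35 for Srsf9.

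A model with the line as a term compared all 4 dTAG-13 libraries with all 4 DMSO libraries. It holds what the depletions share together with any effect of dTAG-13 itself. These cannot be told apart here, since no untagged line was analysed. No member and 0 genes (0%) passed an adjusted p of 0.05 in edgeR, with 587 genes (3.59%) and 0 members at an unadjusted p under 0.05. DESeq2 called 4 genes and limma-voom 9, with no member. At an unadjusted p under 0.05, DESeq2 had 0 members among 238 of 16371 genes and limma-voom 3 members among 1267. No member had all 4 treated libraries above or all 4 below the DMSO libraries, against 1.03% and 1.22% of all genes. Srsf4, Srsf5 and Srsf6 were among the members whose values had the same sign in either line. Their common log2 fold changes were 0.12 (95% interval -0.01 to 0.26), -0.13 (-0.28 to 0.02) and -0.12 (-0.25 to 0.00), with an adjusted p of 0.96 each in edgeR. Once replicate 1 of DHX35-dTAG in DMSO was left out they were 0.12 (0.01 to 0.24), -0.07 (-0.16 to 0.03) and -0.11 (-0.20 to -0.01), and the median of the 10 members was 0.01, against -0.08 with all libraries. In that fit edgeR called 8 genes (0.047%) and no member, and Srsf4 and Srsf6 had an unadjusted p under 0.05, of 0.041 and 0.031, as did 7.22% of all genes.

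Whether the lines responded differently was tested as an interaction, GPATCH1-dTAG minus DHX35-dTAG. No member and 0 genes (0%) passed in edgeR, and 639 genes (3.9%) and 0 members had an unadjusted p under 0.05. DESeq2 called 9 genes and limma-voom 0, without a member. At an unadjusted p under 0.05, DESeq2 had 2 members among 249 of 16371 genes and limma-voom 3 members among 887. Srsf9 had a difference of 0.67 (95% interval -0.06 to 1.39) and Srsf3 one of 0.53 (a fold of 1.00 to 2.09 at 95%) on the log2 scale, with an adjusted p of 0.86 each in edgeR. Without replicate 1 of DHX35-dTAG in DMSO these differences were 0.18 (-0.09 to 0.44) and 0.20 (-0.01 to 0.40), and 9 genes (0.0528%) and no member passed. Without replicate 2 of that group they were 1.03 and 0.79, and Srsf1, Srsf2, Srsf3, Srsf7 and Srsf9 passed among 3588 genes (20.9%). Srsf9 also passed with library totals (adjusted p = 0.026, edgeR) among 179 genes (1.09%), and Srsf3 without a filter (0.048) among 140 genes (0.429%).

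Between the lines, with the treatment as a term, 128 genes (0.782%) passed in edgeR and no member did. Srsf4 was the only member among the 2509 genes (15.3%) with an unadjusted p under 0.05, higher in GPATCH1-dTAG cells by 0.18 (95% interval 0.05 to 0.32, adjusted p = 0.21, edgeR). No member separated the 4 libraries of one line from the 4 of the other, against 5.62% of all genes that were higher in every GPATCH1-dTAG library and 6% that were lower. Without replicate 1 of DHX35-dTAG in DMSO, 1013 genes (5.95%) passed in edgeR, again with no member, and Srsf4 was at 0.18 with an adjusted p of 0.070. The lines differ in the tagged gene, the clone and the culture, which cannot be told apart.

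The spread between replicates set what could be seen. In DHX35-dTAG in DMSO the members differed between replicates by a median of 0.28 on the log2 scale, close to the 0.29 of all genes. The same median was 0.11 in DHX35-dTAG in dTAG-13 (all genes 0.15), 0.02 in GPATCH1-dTAG in DMSO (0.10) and 0.05 in GPATCH1-dTAG in dTAG-13 (0.12). A difference of over 0.2 was found for 7 members in DHX35-dTAG in DMSO, for 1 in dTAG-13 of that line and for 0 in either GPATCH1-dTAG group. Of all genes, 63.2% and 38.9% differed by that much in the DHX35-dTAG groups and 28.8% and 31.0% in the GPATCH1-dTAG groups. The members did not deviate as a block in the library that stood apart. There 7 members lay above their own mean, Srsf9 and Srsf3 furthest, while Srsf4, Srsf10 and Srsf11 lay below it. Srsf10 and Srsf11 were lower in replicate 1 than in replicate 2 by 0.26 and 0.30 on the log2 scale, whereas Srsf3 and Srsf9 were higher by 0.61 and 0.86.

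**Figure D2:**
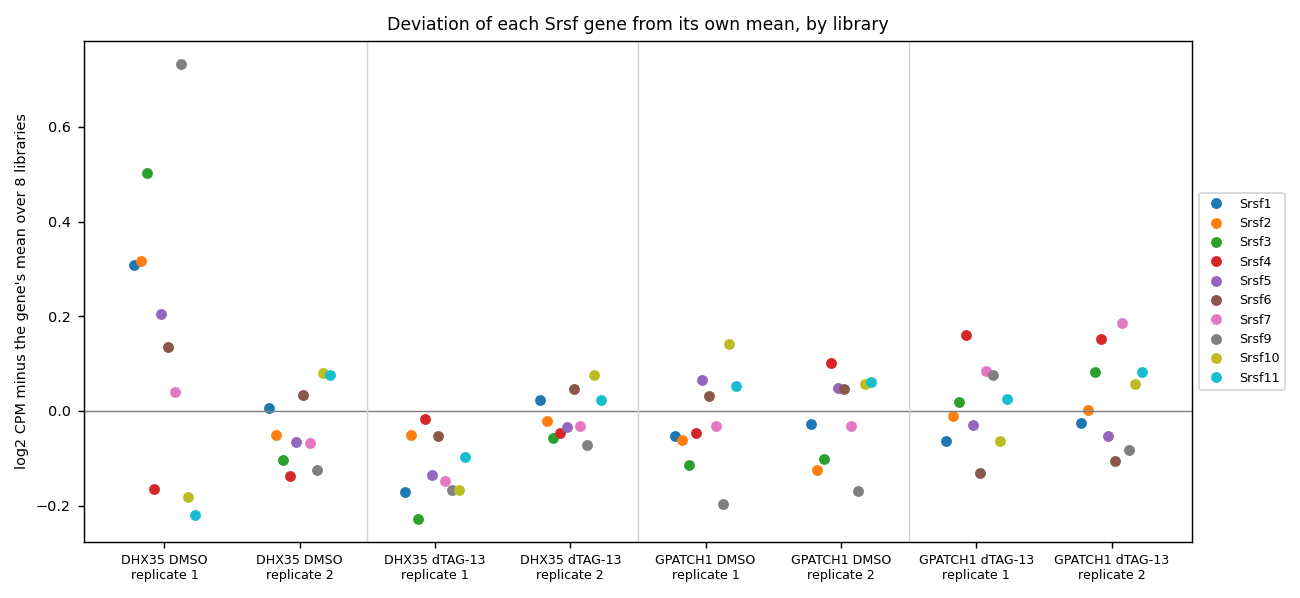
Log2 CPM of each member minus its own mean over the 8 libraries (y axis), by library (x axis), with 1 colour per gene and lines between the groups. In replicate 1 of DHX35-dTAG in DMSO the points spread from Srsf11 at -0.22 to Srsf9 at 0.73, and in the other 7 libraries they stay between -0.23 and 0.19.

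Pairs of members were compared over the libraries as a description, since the points share library composition. Over 8 libraries the 45 pairs had a median Pearson correlation of 0.24, with 26 above 0, and over the 7 libraries without replicate 1 of DHX35-dTAG in DMSO the median was 0.32. Srsf10 and Srsf11 varied together with and without that library (0.87 and 0.84). Srsf3 and Srsf7 correlated at 0.54 over 8 and at 0.97 over 7 libraries, and Srsf1 and Srsf2 at 0.87 and 0.06. Srsf4 and Srsf6 had a correlation of -0.79 over 8 and of -0.70 over 7 libraries.

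The genes around the family were described by lists. Of 25 SR-related proteins, of 10 tested kinases and import receptors of SR proteins, of 18 factors of nonsense-mediated decay and the exon junction complex, and of 20 other RNA-binding protein genes with poison exons or detained introns, 0 passed an adjusted p of 0.05 in edgeR, DESeq2 or limma-voom in either depletion, and 0 in edgeR without replicate 1 of DHX35-dTAG in DMSO. Some genes stand in more than 1 list, and an 11th kinase, Srpk3, had at most 9 counts and was not tested. At an unadjusted p under 0.05, 1 SR-related gene and 1 poison exon gene were higher after DHX35 depletion, where 5.39% of all genes passed, and 0 genes of any list after GPATCH1 depletion, where 2.97% did. The counts without replicate 1 of DHX35-dTAG in DMSO were 1 SR-related, 1 decay and 1 poison exon gene after DHX35 depletion (4.6% of all genes), and 3 SR-related and 2 poison exon genes after GPATCH1 depletion (8.41%). Those of GPATCH1 depletion were Luc7l3 (unadjusted p = 0.017), Tra2a (0.0098) and Tra2b (0.047) in edgeR's test, the last 2 of which stand in both lists. limma-voom on all libraries also had 3 and 2 genes of these lists there, with 10.5% of all genes. The median log2 fold changes of these 4 lists lay between -0.03 and 0.02 after DHX35 depletion and between -0.00 and 0.01 after GPATCH1 depletion, next to -0.01 and 0.00 over all genes. Without replicate 1 of DHX35-dTAG in DMSO, the lists lay between -0.07 and 0.02 after DHX35 depletion, next to 0.00 over all genes. The kinases and import receptors moved from 0.02 to -0.07 and the poison exon genes from -0.03 to -0.06.

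No kinase of SR proteins passed the test with treatment. Srpk1, the main cytoplasmic kinase, had log2 fold changes of 0.03 ± 0.09 (SE) after DHX35 depletion and 0.01 ± 0.09 after GPATCH1 depletion. Clk1 and Clk4, nuclear kinases whose own transcripts are held back with introns in the nucleus, were at -0.03 ± 0.13 and -0.16 ± 0.10 after DHX35 depletion. After GPATCH1 depletion they were at -0.04 ± 0.13 and -0.01 ± 0.09. Prpf4b, a kinase of the spliceosome, was at 0.16 and -0.08. With replicate 1 of DHX35-dTAG in DMSO left out, the values after DHX35 depletion were -0.07 for Srpk1, -0.18 for Clk1, -0.14 for Clk4 and 0.03 for Prpf4b.

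Tra2a and Tra2b, SR-like activators that control each other through poison exons, were at -0.13 ± 0.10 and 0.10 ± 0.12 after DHX35 depletion and at 0.18 ± 0.10 and 0.16 ± 0.12 after GPATCH1 depletion, on the log2 scale. Upf1, the helicase of decay, was at 0.01 ± 0.09 and 0.05 ± 0.09. With that library left out, Tra2a, Tra2b and Upf1 were at -0.00, -0.01 and -0.00 after DHX35 depletion. The largest values of the lists were not called either. In DHX35 depletion they included Srsf12 at 0.50 ± 0.30, a gene with at most 1.87 CPM, Clk4 at -0.16 and Ptbp1 at 0.32 ± 0.14. Ptbp1, a repressor of neuronal exons, was at 536 CPM in replicate 1 of the DMSO group and at 749.7, 838 and 766 CPM in the other 3 libraries of the line. Without that library Ptbp1 was at 0.10 and Srsf12 at 0.26 on the log2 scale. In GPATCH1 depletion the largest were Luc7l3 at -0.20 ± 0.11, Prpf4b at -0.08 ± 0.12, Magohb at -0.19 ± 0.43 and Tra2a at 0.18, and across both lines Ddx5 had -0.15 ± 0.08 among the poison exon genes. Ddx5 was highest in replicate 1 of DHX35-dTAG in DMSO, at 1049.9 CPM against 781 to 896 CPM in the others, and at -0.08 without it.

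Between the lines, Clk1, Clk4 and Tra2a were each about as much higher in GPATCH1-dTAG cells as one another, by 0.25 ± 0.09, 0.25 ± 0.07 and 0.23 ± 0.08 on the log2 scale. Their adjusted p in edgeR was 0.23, 0.14 and 0.23, so edgeR called none with all libraries. limma-voom with sample quality weights, also on all libraries, called Clk4 and Tra2a among 740 genes (4.52%). Once replicate 1 of DHX35-dTAG in DMSO was left out they were higher by 0.19, 0.28 and 0.31, and Clk4 (adjusted p = 0.014, edgeR) and Tra2a (0.00082) passed while Clk1 (0.082) did not, in a fit in which 5.95% of all genes passed. Of the 4 lists, Clk2 and Rbm5 passed both there and in limma-voom, and DESeq2 with all libraries called Rbm5. The ES cell markers Sox2 (-0.19) and Esrrb (-0.16) were called lower in GPATCH1-dTAG cells in the fit without that library and in limma-voom, 2 of the 8 markers, and their part in these differences was not tested. Clk2, Rbm5, Sox2 and Esrrb were named after their values were seen. Clk4 was at 29.5, 28.5, 25.3 and 26.6 CPM in the 4 DHX35-dTAG libraries and at 33.1, 32.4, 32.0 and 33.3 CPM in the 4 GPATCH1-dTAG libraries, which did not overlap, as in 5.62% of all genes in this direction. The lines overlapped for Clk1, with up to 97.1 CPM in DHX35-dTAG cells and down to 95.4 CPM in GPATCH1-dTAG cells, and for Tra2a, with up to 168 CPM, in replicate 1 of the DMSO group, and down to 162 CPM.

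Reads of neighbouring genes limit some of these levels. For genes on the opposite strand this depends on the counting by strand, which is not given in the sources used here. Srsf4 shares 4610 bases with A930004J17Rik on its own strand, which had 168 to 293 counts against at least 496 for Srsf4. On the opposite strand Srsf4 shares 2229 bases with Gm12992, which had 58 to 78 counts. Srsf11 shares 2470 bases with Gm43362 on its own strand, which had 82 to 221 counts. Srsf1 overlaps the antisense gene Gm11508, and Srsf2 overlaps Mettl23 and Mfsd11 on the opposite strand, none with more than 842 counts in a library against at least 6032 for Srsf1 and 6818 for Srsf2. The Srsf3 pseudogene Srsf3-ps had 4 to 23 counts. In bulk RNA, fewer cells expressing a gene and less RNA per cell cannot be told apart.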

How the data were processed

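RNA of 8 libraries was mixed with human DLD-1 RNA as a spike-in, then depleted of ribosomal RNA and made into stranded libraries. The authors trimmed reads with Trim Galore 0.6.6 and aligned them with STAR 2.7.5c to mm10 and hg19. FastQC 0.11.9 and DESeq2 1.26.0 are also listed in the submitters' processing notes. The deposited values are raw counts per gene symbol. The counting program, annotation and strand setting are not given in the sources used here, and spike-in counts were not used here.

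The main test was the quasi-likelihood F-test of edgeR 4.0.16 under R 4.3.3 (TMM, filterByExpr over 4 groups, Benjamini-Hochberg over all genes tested, threshold 0.05). All 8 libraries shared 1 estimate of the spread. The 2 main contrasts compared dTAG-13 with DMSO within a line, and 3 more gave the treatment across lines, the interaction and the line. The log2 CPM used a prior count of 2. Total counts of 12014203 to 14994173 and a coefficient of variation of 11.2% between replicates set the precision. Alternatives were DESeq2 1.42.0, its size factors, library totals, other filters, a replicate block, the 4 libraries of a line, removal of the 2 ribosomal RNA genes, each library left out, and, chosen after seeing the data, limma-voom (limma 3.58.1) with sample quality weights. The edgeR contrast of DHX35 depletion was also run on simulated counts as a check of the code, and its rate of false calls is not reported here. The members and gene lists were chosen with earlier results of these data known. Genes were named by rule: all members, Dhx35 and Gpatch1, the largest value of each list and 6 regulators of SR proteins, namely Srpk1, Clk1, Clk4, Tra2a, Tra2b and Upf1. The value of 1 gene that this rule names is not reported here. The replicates were not duplicates, since the chi-square per gene between them was 5.34 to 132, where sampling noise gives about 1. Sequences, coordinates and transcript classes were read from GENCODE M21 (GRCm38).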

Additional observations from a re-analysis of the deposited data

Results flagged for a closer look

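In 4 members a single library, replicate 1 of DHX35-dTAG in DMSO, lay far above the rest. The groups have 2 libraries each, so the gap to the nearest library was taken over all 8 libraries as a share of their whole range. Chance alone exceeds the limit used in about 1 of 20 sets. Of all 16371 genes tested, 17.3% exceeded it through this library, 11.1% with the library as the highest, so the library stands apart over many genes. The share was 0.7696 for Srsf9, 0.7424 for Srsf2, 0.6357 for Srsf3 and 0.6351 for Srsf1. These 4 were measured in the same library, so they are not independent of each other, and the part of that library's composition in them was not tested.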

How the results depend on the processing

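The main test called no member, so none could lose a call, and with DESeq2, its size factors, at least 10 counts in every library, the block, the removal of the ribosomal RNA genes and limma-voom none was called either. Members were called with library totals, without a filter and without replicate 2 of DHX35-dTAG in DMSO, in DHX35 depletion and the difference between responses. The numbers of genes called, over all genes, did change. After DHX35 depletion they were 1 with DESeq2, 318 with library totals, 345 without a filter, 1 with the 4 libraries of the line and 0 to 4947 with each library left out. After GPATCH1 depletion they were 10 with library totals, 21 without a filter, 127 with 4 libraries, 32 with limma-voom and 0 to 51 with each library left out, the highest without either replicate of DHX35-dTAG in DMSO. Across both lines they were 4 with DESeq2, 13 with library totals, 80 without a filter, 9 with limma-voom and 0 to 8 with each library left out. For the difference between responses they were 9 with DESeq2, 179 with library totals, 140 without a filter and 0 to 3588 with each library left out. Between the lines they were 227 with DESeq2, 920 without a filter, 740 with limma-voom and 26 to 1013 with each library left out, the highest without replicate 1 of DHX35-dTAG in DMSO and the lowest without replicate 1 of GPATCH1-dTAG in DMSO.

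The differences between replicates correlated at 0.04 to 0.23 between groups, which is too weak to tell whether the replicate numbers pair the libraries. At an unadjusted p under 0.05 in edgeR, the replicate block had 1322 genes against 882 without it after DHX35 depletion. For the difference between responses it had 952 against 639. With the replicate block 2 genes were called for the difference between responses against 0 without it and 151 against 128 between the lines, and no member was called.

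Several members turned their sign, among them Srsf9 and Srsf2 after DHX35 depletion and Srsf6 after GPATCH1 depletion. With library totals the log2 values were -0.12 for Srsf4, -0.24 for Srsf10 and -0.21 for Srsf11 after DHX35 depletion, and 0.16 for Srsf1, 0.067 for Srsf5, 0.0091 for Srsf6, 0.058 for Srsf10 and 0.16 for Srsf11 after GPATCH1 depletion. They were -0.026 for Srsf11 across both lines, and 0.34 for Srsf6, 0.30 for Srsf10 and 0.38 for Srsf11 for the difference between responses, where that scaling moved the median of all genes to 0.40. Without a filter Srsf1 and Srsf11 were at 0.0072 and 0.0084 after GPATCH1 depletion, and with at least 10 counts in every library Srsf10 was at -0.0045 after DHX35 depletion. With DESeq2 and with its size factors Srsf11 was at 0.00022 and 0.00023 after GPATCH1 depletion. With limma-voom Srsf2, Srsf3, Srsf9 and Srsf11 were at 0.050, 0.075, 0.090 and -0.026 across both lines, and Srsf3 was at 0.079 between the lines. With each library left out, values after DHX35 depletion ran from -0.34 to 0.018 for Srsf2, -0.85 to 0.0081 for Srsf9, -0.12 to 0.15 for Srsf10 and -0.11 to 0.19 for Srsf11. After GPATCH1 depletion they ran from -0.024 to 0.016 for Srsf1 and -0.033 to 0.027 for Srsf11. Across both lines they ran from -0.087 to 0.060 for Srsf2, -0.17 to 0.081 for Srsf3, -0.25 to 0.12 for Srsf9 and -0.046 to 0.075 for Srsf11. For the difference between responses they ran from -0.068 to 0.076 for Srsf4, -0.079 to 0.18 for Srsf5, -0.25 to 0.017 for Srsf10 and -0.20 to 0.11 for Srsf11. Between the lines they ran from -0.14 to 0.0029 for Srsf2, -0.16 to 0.11 for Srsf3, -0.030 to 0.075 for Srsf5 and -0.31 to 0.049 for Srsf9. The cause of these turns was not tested.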

Other observations

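Among 8963 genes with a mean of at least 10 CPM, log2 CPM was correlated with the mean of the 10 members over the 8 libraries. The genes most like that mean are named here. They were Cct6a, a subunit of the TRiC chaperonin (Pearson 0.98), Scp2, a lipid carrier (0.98), Hnrnpdl, an RNA-binding protein with a poison exon of its own (0.98), Psmd14, a deubiquitinase of the proteasome (0.97), and Ptges3-ps, a pseudogene (0.97). Without replicate 1 of DHX35-dTAG in DMSO the values were 0.95, 0.95, 0.92, 0.92 and 0.97 over 7 libraries. The points share library composition, so these values are a description of the libraries. Pairs of members had a median correlation of only 0.24, so these genes resemble the mean and not each member. A chance level for the best of 8963 genes was not computed.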
